A study of Homo sapiens with 6 samples.

Results

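Potassium channels let potassium ions leave or enter cells down their electrochemical gradient and thereby set the membrane potential. Pore-forming subunits are opened by voltage, by intracellular calcium or sodium, by G proteins or nucleotides, or are open at rest, and auxiliary subunits change their gating and trafficking. In the colon they are known for holding the driving force of chloride secretion and for potassium secretion, and several have been studied in the growth of cancer cells. The potassium channel genes described here are the 95 rows of the deposited count table, of 39396 rows in all, whose symbol is KCN followed by letters and a final number. Antisense genes, read-through transcripts and symbols with a letter after the number are outside this definition.

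The data are RNA sequencing counts from 6 libraries, 3 labelled RKO treated with olaparib and 3 labelled RKO treated with the solvent DMSO, all with a wild-type genotype label. RKO is an established line of poorly differentiated human colorectal carcinoma, and olaparib inhibits PARP enzymes, which sense DNA strand breaks. Cells were plated 24 h before treatment. The sources used here do not state the olaparib dose or the length of exposure. The study title concerns KAT2B, RAD51C and sensitivity to olaparib, and no label names potassium channels.

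Library totals were 28715138 to 31387990 counts in olaparib and 29544974 to 42423785 counts in DMSO, and 1 count was worth 0.0226 to 0.0354 CPM, the count scaled by the library size. The groups differed across the whole transcriptome: 75.7% of the 17078 genes tested were called, 35.4% higher and 40.3% lower in olaparib. Markers of cell type also differed. Of 10 genes known from the embryonic kidney line HEK293, some of them chosen with earlier results known, 2 reached 1 CPM in olaparib and 9 in DMSO, and their summed level was 63.1 to 79.2 CPM in olaparib libraries and 460 to 736 CPM in DMSO libraries. Of these, 8 were lower in olaparib, and PAX2, SALL1, NEFL, LIN28B and KIF1A had no count there. PAX8 was higher, at 6.33 ± 0.576 CPM in olaparib and 0.541 ± 0.160 CPM in DMSO (SD, n = 3), and CDH2, which made up most of the olaparib sum, was not called, at 65.6 ± 7.77 CPM in olaparib and 59.8 ± 5.58 CPM in DMSO. Of 12 neuronal genes 8 were tested, of which 6 were lower and 1 higher in olaparib. The 12 summed to 31.0 to 37.6 CPM in olaparib, against 70.7 to 94.7 CPM in DMSO. The keratins KRT8 and KRT18 were present in both groups. The 8 epithelial genes summed to 852 to 1149 CPM in olaparib and 221 to 287 CPM in DMSO, mostly from KRT8 and KRT18. Of the 5 tested, 4 were higher in olaparib (EPCAM, KRT8, KRT18 and CLDN4). CDH1 was not called, at 0.808 ± 0.561 CPM in olaparib and 0.900 ± 0.105 CPM in DMSO. KRT19, ESRP1 and GRHL2 were not tested, and GRHL2 had no count in any library. The intestinal factor CDX1 had no count in any library and CDX2 had none in olaparib, and the 10 intestinal markers summed to 22.3 to 27.9 CPM in olaparib and 53.9 to 68.1 CPM in DMSO. Of the 5 intestinal markers tested, 3 were lower and 2 were higher. MUC2 averaged 5.30 ± 2.21 CPM in olaparib and 0.0237 ± 0.0411 CPM in DMSO, and HNF4A 9.69 ± 0.169 CPM in olaparib and 0.121 ± 0.129 CPM in DMSO. A difference in cell source and the treatment cannot be told apart in this design, so every difference below is between libraries as labelled. In bulk RNA, fewer cells that express a gene and less RNA per cell cannot be told apart either.

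Of the 95 potassium channel genes, 57 passed the expression filter and were tested, 19 of which rose and 31 of which fell in olaparib by edgeR's quasi-likelihood test at a Benjamini-Hochberg adjusted p of 0.05. These are 33.3% and 54.4% of the members tested, beside 35.4% and 40.3% of all genes tested. At least 2-fold changes were called in 16 members upward and 27 downward, 28.1% and 47.4% of those tested, beside 22% and 25% of all genes tested, or 47% in either direction. The median absolute log2 fold change was 2.45 in the members tested and 0.94 in all genes tested, and the median log2 fold change was -0.64 in these members and -0.09 in all genes. The groups did not overlap in 51 of 57 members (89.5%), beside 79.4% of all genes tested. A gene expressed in a single group enters the test through that group, so these counts describe the members that passed and not the family.

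Of the 49 members with a mean of at least 1 CPM in a group, 23 reached it in both groups, 10 in olaparib alone and 16 in DMSO alone. With a stricter definition, at least 1 CPM in all 3 libraries of a group and less than 0.1 CPM in all 3 of the other, 1 member was on in olaparib only, beside 0.679% of all genes tested, and 8 were on in DMSO only (14.0% of the 57 tested), beside 3.19% of all genes. KCNJ18 was the member on in olaparib only. KCNJ8, KCNT2, KCNK13, KCNG1, KCNB2, KCNV1, KCNQ5 and KCNN2 were on in DMSO only. The plot of CPM in each library shows these genes beside the other members with large changes.

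**Figure D1:**
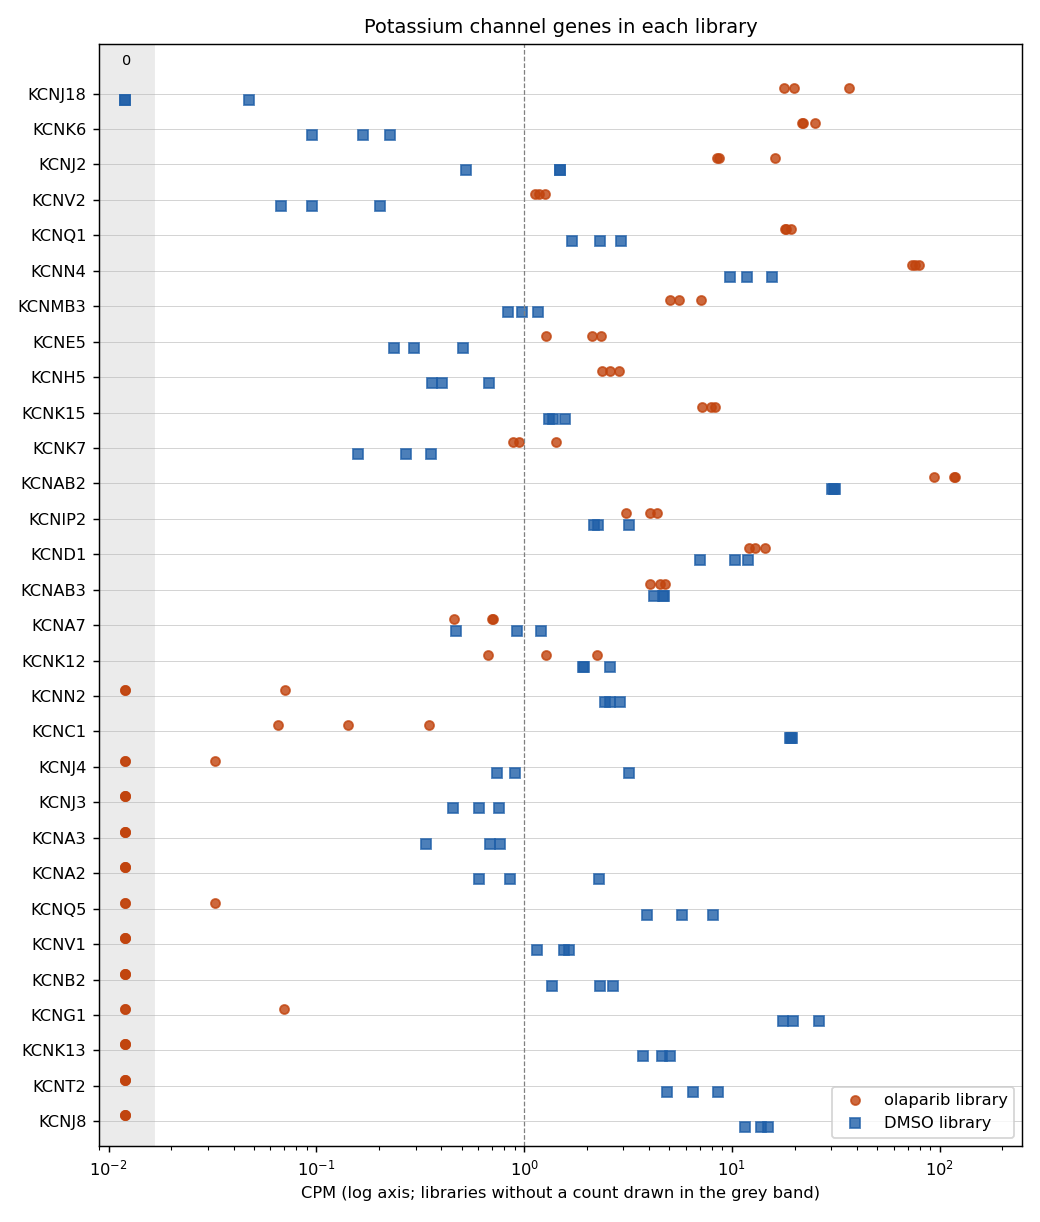
CPM of 30 potassium channel genes in each library on a log axis, ordered by log2 fold change, with olaparib libraries as circles above DMSO libraries as squares and libraries without a count in the grey band at the left. The bottom rows hold genes with 0 to 1 libraries detected in olaparib and all 3 in DMSO, while KCNJ18 at the top was detected in 1 DMSO library.

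The pore-forming voltage-gated channels, which repolarise excitable cells, are the largest class. Of 30 members 17 were tested, 11 were lower, 4 were higher and 2 were not called, beside 40.3% lower and 35.4% higher among all genes tested. KCNC1, a rapidly gating channel of fast-spiking neurons, had 0.349, 0.0653 and 0.142 CPM in olaparib replicates 1, 2 and 3, against 19.0, 19.5 and 19.3 CPM in DMSO. It was 103-fold lower (log2 fold change -6.69 ± 0.32, SE; edgeR adjusted p = 3.65e-09). The groups did not overlap, and the DMSO libraries were within a narrow range. Its relative KCNC4 went the other way, at 41.5 ± 1.68 CPM in olaparib and 22.8 ± 2.08 CPM in DMSO (SD, n = 3), 1.82-fold higher. KCNC1 moved to -7.52 without olaparib replicate 1, which held most of its olaparib counts.

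KCNQ5, a channel of the M-current, which is a slow brake on neuronal firing, was lower as well. It had 1 count in olaparib, in replicate 2, against 8.07, 3.91 and 5.72 CPM in DMSO, a count ratio of 535 (95% counting interval 95.7 to 21158). Without that replicate KCNQ5 had no olaparib count and its fitted log2 fold change moved from -8.62 over all libraries to -10.68.

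KCNQ1, the cardiac and epithelial member of that subfamily, rose. Its level was 18.2, 17.97 and 19.3 CPM in the olaparib libraries, against 2.92, 2.33 and 1.70 CPM in DMSO. The groups were far apart relative to their spread, and the difference was 7.99-fold (log2 2.999 ± 0.21, SE; edgeR adjusted p = 7.46e-08). KCNQ1 lies on chromosome 11 from 2444684 to 2849110 (hg38), and the imprinted antisense RNA KCNQ1OT1 is transcribed from within it. KCNQ1OT1 overlaps 2.72% of the exon length of KCNQ1 and went in the opposite direction, at 0.481 ± 0.322 CPM in olaparib and 8.01 ± 2.01 CPM in DMSO, a 16.6-fold fall (edgeR adjusted p = 1.33e-06). The sources used here do not give the strand setting of the counting, and without strand, reads from their shared bases cannot be told apart.

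Shaker-type channels (KCNA) and KCNB channels were scarce. Of the tested ones, KCNA2, KCNA3 and KCNB2 had counts in DMSO and none in olaparib, and so did the untested KCNA1 and KCNA4, with 10 and 8 counts over the DMSO libraries. KCNA2 was without a count in olaparib, against 2.28, 0.607 and 0.859 CPM in DMSO libraries, and was at least 38.2-fold lower with a floor of 3 counts over the 3 olaparib libraries. KCNA3, the channel of T lymphocytes, likewise lacked olaparib counts, against 0.688, 0.337 and 0.769 CPM in DMSO libraries (at least 18.4-fold lower). KCNB2, a delayed rectifier, stood at 0 in olaparib and at 2.68, 2.33 and 1.36 CPM in DMSO libraries, which makes it at least 60.9-fold lower. In all 3 genes every DMSO library was above every olaparib library, by edgeR's test with adjusted p = 0.000129 for KCNA2, 0.000186 for KCNA3 and 6.03e-06 for KCNB2. DMSO replicate 1 held most KCNA2 counts, and the fitted value of -8.42 (log2) became -7.59 when it was left out.

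Among ether-a-go-go channels, KCNH2, the hERG channel of cardiac repolarisation, was 3.93-fold lower (1.28 ± 0.379 CPM in olaparib against 5.02 ± 1.69 CPM in DMSO) and KCNH3 2.91-fold lower. KCNH5 rose, at 2.58, 2.87 and 2.37 CPM in olaparib and 0.404, 0.674 and 0.362 CPM in DMSO, 5.53-fold higher (edgeR adjusted p = 3.93e-05) without overlap. KCNH4 was 2.82-fold higher, at 1.15 ± 0.368 CPM against 0.404 ± 0.0712 CPM. KCNH1, the best known of the subfamily in tumours, had 10 counts over the olaparib libraries and 4 over the DMSO libraries and was not tested. KCND1, a channel of the A-type current, had 12.1, 14.5 and 12.8 CPM in olaparib and 6.98, 10.4 and 11.9 CPM in DMSO. The difference, log2 0.43 ± 0.20 (SE), was not called (edgeR adjusted p = 0.0643), although the groups did not overlap, and it was called without DMSO replicate 3 (0.59, adjusted p = 0.031), with no filter beyond 1 count and with the replicate number as a block. KCNA7 had 0.698, 0.457 and 0.708 CPM in olaparib and 1.21, 0.472 and 0.927 CPM in DMSO, overlapped and was not called.

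Silent subunits do not form channels alone and change the properties of KCNB channels with which they assemble. Of 10 members 6 were tested, 5 lower and 1 higher, beside 40.3% lower and 35.4% higher among all genes tested. A class of this size is too small to set against those shares. KCNG1 had 0.0698 CPM in olaparib replicate 1, from 2 counts, and none in replicates 2 and 3, against 17.5, 26.3 and 19.7 CPM in DMSO. The count ratio was 902 (95% counting interval 249 to 7449), and KCNG1 held 2390 counts over the DMSO libraries, the most of the silent subunits. KCNG3 was 43.6-fold lower (0.185 ± 0.147 against 8.14 ± 0.769 CPM). KCNV1 stood at 0 in olaparib and at 1.64, 1.55 and 1.15 CPM in DMSO libraries, which is at least 41.7-fold lower. Without olaparib replicate 1 the fitted log2 fold change of KCNG1 moved from -9.64 to -12.53 and that of KCNG3 from -5.45 to -6.27. KCNS3 was 3.02-fold lower. KCNS1 was 2.45-fold lower, a call lost without olaparib replicate 1 (adjusted p = 0.0555), olaparib replicate 2 (0.0773) or DMSO replicate 1 (0.114) and with the replicate block (0.0539).

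KCNV2, known from photoreceptors, was the silent subunit that rose. It had 1.26, 1.18 and 1.13 CPM in olaparib and 0.095, 0.0674 and 0.203 CPM in DMSO, 9.11-fold higher (edgeR adjusted p = 7.46e-05). Without DMSO replicate 3 the other libraries met the definition of on in olaparib only. Summed over the class, silent subunits stood at 4.08 ± 0.648 CPM in olaparib and 37.7 ± 3.38 CPM in DMSO (SD, n = 3). KCNB2, with which they are known to assemble, had no count in olaparib.

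Channels opened by calcium or sodium split between the groups, with 2 higher and 5 lower of 7 tested out of 8. These are too few to set against the 35.4% higher and 40.3% lower among all genes tested. KCNN4, the intermediate-conductance channel that sets the driving force for chloride secretion in colonic epithelium, had 76.0, 79.0 and 73.2 CPM in olaparib, against 9.78, 15.5 and 11.8 CPM in DMSO. Every olaparib library was several times above every DMSO library, and KCNN4 was 6.17-fold higher (log2 2.63 ± 0.15, SE; edgeR adjusted p = 1.92e-08). The 3 small-conductance channels of the same subfamily, known for the after-hyperpolarisation of neurons, all fell. KCNN2 had 2 counts in olaparib, in replicate 3, against 2.90, 2.46 and 2.60 CPM in DMSO libraries (count ratio 117, 95% interval 32.1 to 970). KCNN3 had 2 olaparib counts, in replicate 2, against 0.883 ± 0.206 CPM in DMSO libraries (count ratio 38.9, 95% interval 10.5 to 325), and KCNN1 was 2.82-fold lower. Without those replicates KCNN2 moved from -6.64 to -9.53 (log2) and KCNN3 from -5.07 to -7.94.

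KCNT2, a sodium-activated channel, was without a count in olaparib, against 8.55, 4.85 and 6.51 CPM in DMSO libraries, and was at least 199-fold lower (edgeR adjusted p = 2.15e-07). KCNT1, its paralog, was higher in olaparib, at 1.60 ± 0.402 CPM against 0.832 ± 0.256 CPM. That call was lost with DESeq2 (adjusted p = 0.0581), with the replicate block (0.0612) and without olaparib replicate 2 (0.159), DMSO replicate 1 (0.107) or DMSO replicate 2 (0.0564). KCNMA1, the large-conductance channel that secretes potassium in the distal colon, was below 1 CPM in both groups, with 8 counts in olaparib, all in replicate 3, and 0.827 ± 0.288 CPM in DMSO. It was 8.76-fold lower, and its log2 fold change of -3.13 moved to -7.87 without olaparib replicate 3 and to -2.53 without olaparib replicate 2.

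**Figure D2:**
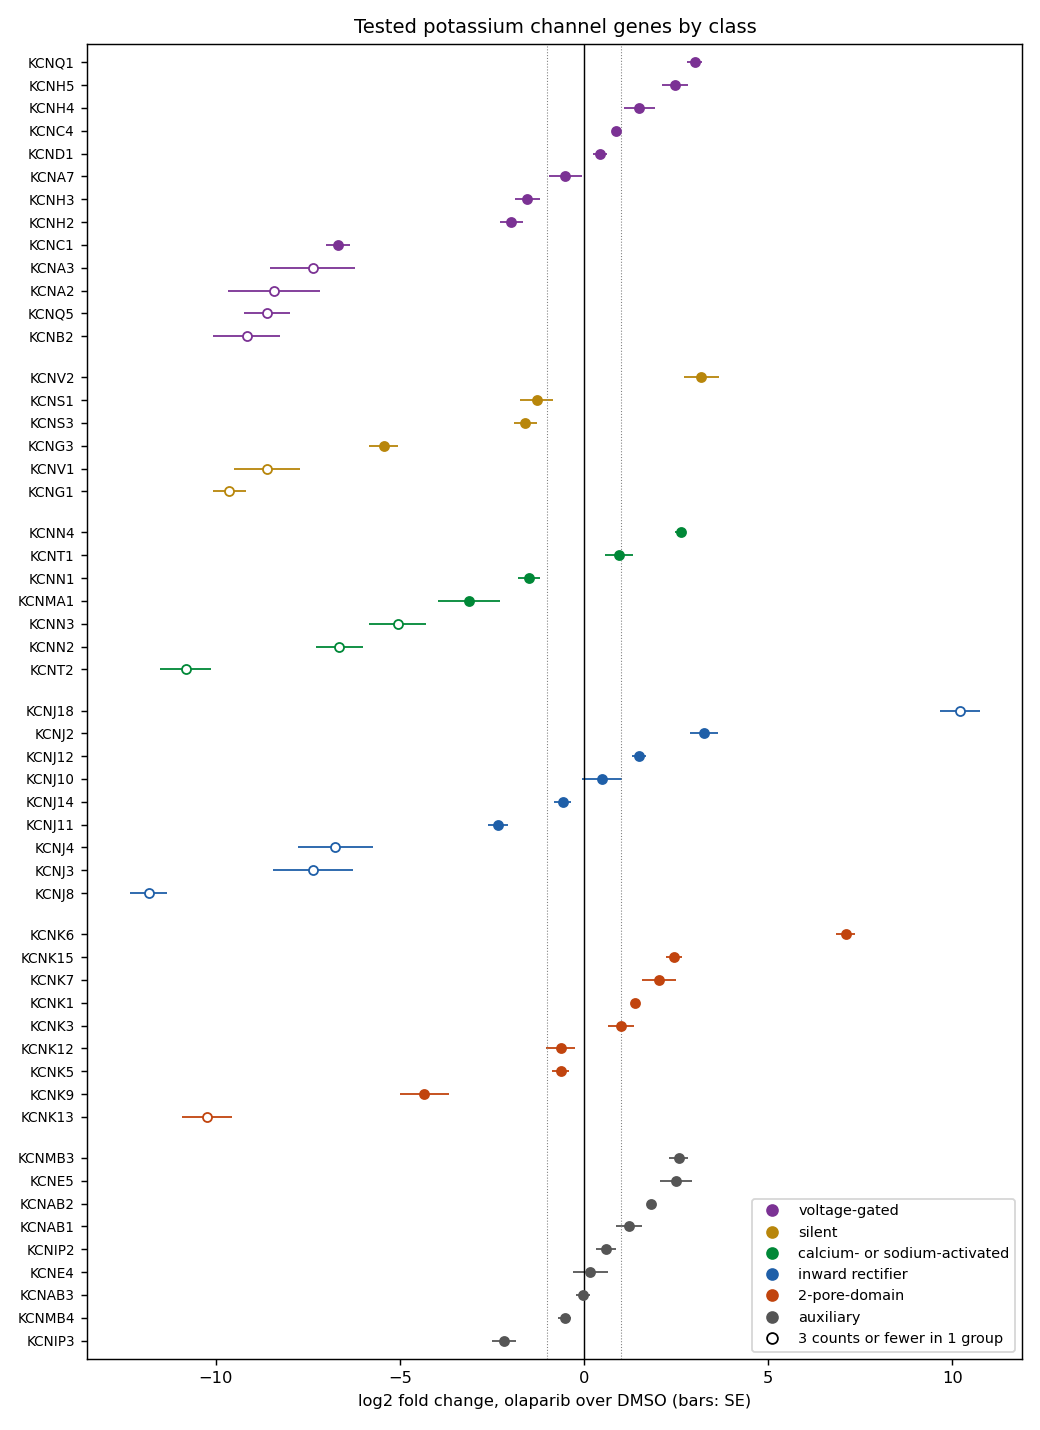
Log2 fold change (olaparib over DMSO) with its SE for 53 of the 57 potassium channel genes tested, grouped by channel class, with the dotted lines at 2-fold. Open circles mark genes with 3 counts or fewer in 1 group, whose fitted value depends on the prior count. Each class holds genes on both sides of 0, from KCNJ8 at -11.83 to KCNJ18 at 10.21.

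Inward rectifiers, which pass potassium more readily into the cell, held the largest fitted log2 fold change in each direction. Against a group at or near 0 the fitted value depends on the prior count, so this is not a ranking of true changes. Of 16 members 9 were tested, 3 were higher, 5 lower and 1 not called. Among all genes tested 35.4% were higher and 40.3% lower, and the class is too small to set against that. KCNJ8, a pore of the ATP-sensitive channel, had no count in any olaparib library, against 13.9, 14.9 and 11.5 CPM in DMSO libraries, and was at least 386-fold lower (edgeR adjusted p = 1.34e-08). The gene lies on chromosome 12 from 21764955 to 21775581. KCNJ11, the other pore of that channel, was 5.07-fold lower, at 1.25 ± 0.413 CPM in olaparib and 6.36 ± 0.418 CPM in DMSO. The sulfonylurea receptors with which both assemble were lower too: ABCC9 stood at 0 in olaparib and at 1.51 ± 0.788 CPM in DMSO libraries (at least 44.5-fold lower), and ABCC8 was 1.96-fold lower, at 3.54 ± 0.632 against 6.96 ± 0.533 CPM.

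Of the strong inward rectifiers, which stabilise the resting potential of muscle and heart, KCNJ2, KCNJ12 and KCNJ18 rose and KCNJ4 fell. KCNJ2 had 16.1, 8.46 and 8.70 CPM in olaparib and 0.522, 1.48 and 1.49 CPM in DMSO, 9.59-fold higher (log2 3.26 ± 0.38, SE; edgeR adjusted p = 7.46e-06). KCNJ12 had 47.4 ± 7.27 CPM in olaparib and 16.7 ± 5.30 CPM in DMSO, 2.83-fold higher. KCNJ18, a channel of skeletal muscle, had 36.6, 19.8 and 17.9 CPM in olaparib, against 0.0475 CPM in DMSO replicate 1, from 2 counts, and none in DMSO replicates 2 and 3. The count ratio of KCNJ18 was 1431 (95% counting interval 396 to 11827), and its fitted value of 10.21 (log2) became 12.64 without DMSO replicate 1 and 9.60 without DMSO replicate 3. In KCNJ2, KCNJ12 and KCNJ18 alike, olaparib replicate 1 was the highest library.

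KCNJ12 and KCNJ18 are closely related genes on chromosome 17, at 21376197 to 21419872 and at 21692523 to 21704612. They share part of their transcript sequence, so the division of reads between them is uncertain. Of the 75-base words in their GENCODE transcripts, 595 are shared, which is 28.0% of those of KCNJ18 and 10.7% of those of KCNJ12. Added together, the pair had 92.3, 62.2 and 62.1 CPM in olaparib and 22.9, 13.8 and 13.6 CPM in DMSO. The sum was 4.30-fold higher (log2 2.10 ± 0.22, SE; edgeR adjusted p = 3.2e-06), a fit added after the data were seen.

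The remaining inward rectifiers were low. KCNJ3, a G protein-gated channel, stood at 0 in olaparib and at 0.760, 0.607 and 0.452 CPM in DMSO libraries (at least 17.6-fold lower). KCNJ4 had 1 count in olaparib, in replicate 2, and 3.18, 0.741 and 0.904 CPM in DMSO libraries (count ratio 148, 95% interval 26.2 to 5870). Most of its DMSO signal came from replicate 1, and its fitted log2 fold change of -6.75 became -5.78 without that library and -8.81 without olaparib replicate 2. KCNJ14 was 1.496-fold lower (4.21 ± 0.959 against 6.29 ± 0.864 CPM), a call lost with the replicate block (adjusted p = 0.0523) and without olaparib replicate 1 (0.127), DMSO replicate 1 (0.0612) or DMSO replicate 3 (0.102). GRWD1, on the same strand, overlaps 8.07% of its exon length and was 2.47-fold lower. KCNJ10, the glial channel, was below 1 CPM in both groups and not called, and the partners of KCNJ3 in G protein-gated channels, KCNJ5, KCNJ6 and KCNJ9, held 9 counts or fewer over the olaparib libraries and 28 or fewer over the DMSO libraries.

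Among 2-pore-domain channels, which carry background current at rest, 5 of the 9 tested of 15 were higher, 3 lower and 1 not called. That is too few to set against the 35.4% higher and 40.3% lower among all genes tested. KCNK6 had 25.1, 22.0 and 21.8 CPM in olaparib, against 0.095, 0.169 and 0.226 CPM in DMSO. It was 137-fold higher (log2 7.10 ± 0.26, SE, with edgeR adjusted p = 5.1e-10), and its 19 DMSO counts were spread over all 3 libraries. DMSO replicates 2 and 3 were above 0.1 CPM, which kept KCNK6 outside the definition of on in olaparib only. The gene lies on chromosome 19 from 38319844 to 38332076. KCNK1, of the same weakly rectifying kind, had 80.5 ± 2.03 CPM in olaparib and 31.2 ± 2.11 CPM in DMSO, 2.58-fold higher. KCNK7 had 0.942, 0.882 and 1.42 CPM in olaparib and 0.356, 0.270 and 0.158 CPM in DMSO, 4.10-fold higher (adjusted p = 0.00148 by edgeR).

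The acid-sensitive channels differed among themselves. KCNK15 had 7.88, 8.30 and 7.18 CPM in olaparib and 1.57, 1.38 and 1.31 CPM in DMSO, 5.47-fold higher (edgeR adjusted p = 6.43e-07). RIMS4, on the opposite strand, overlaps 19.5% of the exon length of KCNK15 and was 9.55-fold lower in olaparib, the opposite direction. KCNK3 was 1.99-fold higher (1.30 ± 0.142 against 0.648 ± 0.130 CPM) and KCNK9 20.3-fold lower (0.0671 ± 0.0654 against 1.45 ± 0.636 CPM). The KCNK3 call was lost with DESeq2 (adjusted p = 0.0523), with the replicate block (0.058), and without olaparib replicate 1 (0.0688), olaparib replicate 2 (0.0511), DMSO replicate 2 (0.071) or DMSO replicate 3 (0.0513). KCNK9 moved from -4.34 to -5.23 (log2) without olaparib replicate 2.

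KCNK13, the halothane-inhibited channel of microglia, was without a count in olaparib, against 5.06, 3.74 and 4.59 CPM in DMSO libraries, and was at least 133-fold lower (edgeR adjusted p = 2.59e-07). Its close relative KCNK12 was detected in all 6 libraries, at 2.23, 1.27 and 0.672 CPM in olaparib and 1.95, 1.92 and 2.60 CPM in DMSO. The groups overlapped and KCNK12 was not called, except without olaparib replicate 1 (log2 -1.14, adjusted p = 0.0192). KCNK5, a channel of kidney tubules opened by alkaline pH, was 1.56-fold lower, at 7.78 ± 2.55 CPM in olaparib and 12.1 ± 1.05 CPM in DMSO. That call was lost without olaparib replicate 1 (adjusted p = 0.065) or DMSO replicate 3 (0.0825).

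Of 16 auxiliary subunits 9 were tested, 4 were higher, 2 lower and 3 not called, too few to set against the 35.4% higher and 40.3% lower among all genes tested. KCNAB2, a cytoplasmic beta subunit of Shaker-type channels, had 93.9, 118 and 117 CPM in olaparib and 31.5, 30.9 and 30.2 CPM in DMSO, 3.55-fold higher (log2 1.83 ± 0.11, SE; edgeR adjusted p = 2.93e-08). It had the highest CPM of all members in olaparib, although the Shaker-type alpha subunits tested, KCNA2, KCNA3 and KCNA7, were at 0 or at 0.621 CPM there. KCNAB1 was 2.34-fold higher, at 2.74 ± 0.782 CPM in olaparib and 1.17 ± 0.368 CPM in DMSO. KCNAB3 had 4.05, 4.77 and 4.49 CPM in olaparib and 4.23, 4.68 and 4.68 CPM in DMSO, a log2 fold change of -0.03 ± 0.20 (SE), which was not called and turned sign without olaparib replicate 1.

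KCNMB3, a beta subunit of the large-conductance channel, had 5.06, 5.55 and 7.08 CPM in olaparib and 1.16, 0.977 and 0.836 CPM in DMSO, 5.92-fold higher (edgeR adjusted p = 2.43e-06). PIK3CA, on the opposite strand, overlaps 37.9% of the exon length of KCNMB3. PIK3CA was itself 2.36-fold higher, at 38.1 ± 4.10 CPM in olaparib and 16.1 ± 3.05 CPM in DMSO. Without strand, reads of these 2 genes cannot be told apart there. The processed pseudogene LRRFIP1P1, on the same strand as KCNMB3, overlaps 9.62% of the KCNMB3 exon length. LRRFIP1P1 was 5.79-fold higher, at 3.91 ± 0.662 CPM in olaparib and 0.659 ± 0.226 CPM in DMSO. Strand cannot separate reads in that overlap. KCNMB4 was 1.44-fold lower (8.73 ± 1.21 against 12.6 ± 2.19 CPM), a call lost without olaparib replicate 3 (adjusted p = 0.108), DMSO replicate 1 (0.0505) or DMSO replicate 2 (0.0513). LRRC26, the gamma subunit that lets the large-conductance channel open at rest in secretory epithelium, was 5.64-fold higher, at 1.30 ± 0.286 CPM in olaparib and 0.218 ± 0.187 CPM in DMSO, and moved from 2.50 to 3.39 (log2) without DMSO replicate 1.

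KCNE proteins are single-span partners, best known with KCNQ1. KCNE5 had 2.34, 2.12 and 1.27 CPM in olaparib and 0.237, 0.506 and 0.294 CPM in DMSO, 5.64-fold higher (edgeR adjusted p = 0.00018). ACSL4 on the same strand overlaps 5.29% of its exon length and was 3.77-fold higher, at 334 ± 15.9 CPM in olaparib and 88.5 ± 9.98 CPM in DMSO. KCNE3, the partner of KCNQ1 in colonic crypts, had no count in any library, which allows up to 0.0343 CPM over the olaparib libraries and 0.0259 CPM over the DMSO libraries for counting error alone. KCNE2 had none either, KCNE1, with 21 counts over the olaparib libraries and 4 over the DMSO libraries, was not tested, and KCNE4 was below 1 CPM in both groups and not called. The calcium-binding KCNIP proteins assemble with KCND channels. KCNIP3 was 4.51-fold lower (1.04 ± 0.281 against 4.65 ± 1.68 CPM). KCNIP2 had 4.01, 3.10 and 4.35 CPM in olaparib and 2.26, 3.20 and 2.17 CPM in DMSO, overlapped and was not called (edgeR adjusted p = 0.0544), but was called without olaparib replicate 2 (0.0436), without DMSO replicate 2 (0.025) and with the filter of 1 CPM in 3 libraries (0.0476).

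Promoter sequence is shown for 2 genes that fell, KCNJ8 and KCNC1, and 2 that rose, KCNK6 and KCNN4, chosen after their values were seen as members with more than 10 CPM in a group and large changes, so that both directions can be read beside each other. Each line holds the 250 bases before the RefSeq start (GRCh38.p14), 5′ to 3′ on the strand of the gene, with CG dinucleotides in capitals. The windows are chr12:21774707-21774956 on the minus strand for KCNJ8, chr11:17734531-17734780 on the plus strand for KCNC1, chr19:38319595-38319844 on the plus strand for KCNK6 and chr19:43780974-43781223 on the minus strand for KCNN4.
KCNJ8: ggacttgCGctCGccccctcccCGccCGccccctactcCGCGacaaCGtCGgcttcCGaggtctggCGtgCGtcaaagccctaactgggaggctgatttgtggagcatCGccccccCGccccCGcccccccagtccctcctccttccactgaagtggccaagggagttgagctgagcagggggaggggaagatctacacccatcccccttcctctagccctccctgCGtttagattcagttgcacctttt
KCNC1: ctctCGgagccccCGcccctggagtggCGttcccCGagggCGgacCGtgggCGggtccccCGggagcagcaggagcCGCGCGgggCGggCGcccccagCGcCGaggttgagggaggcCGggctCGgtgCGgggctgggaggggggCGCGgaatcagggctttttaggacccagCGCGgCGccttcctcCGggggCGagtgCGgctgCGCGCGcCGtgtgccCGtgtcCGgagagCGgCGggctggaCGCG
KCNK6: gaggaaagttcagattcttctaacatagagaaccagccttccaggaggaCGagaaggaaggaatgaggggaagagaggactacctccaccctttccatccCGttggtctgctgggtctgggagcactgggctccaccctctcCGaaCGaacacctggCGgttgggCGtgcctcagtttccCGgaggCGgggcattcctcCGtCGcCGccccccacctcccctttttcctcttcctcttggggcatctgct
KCNN4: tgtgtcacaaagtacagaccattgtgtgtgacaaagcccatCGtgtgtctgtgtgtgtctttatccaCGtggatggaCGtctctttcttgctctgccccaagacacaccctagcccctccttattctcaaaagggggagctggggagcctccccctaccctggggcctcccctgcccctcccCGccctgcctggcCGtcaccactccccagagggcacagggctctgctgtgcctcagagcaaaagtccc

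The windows hold 15 CG dinucleotides in KCNJ8, 36 in KCNC1, 11 in KCNK6 and 5 in KCNN4, beside a median of 11 over 27305 promoters. Both genes that fell were above that median, while KCNK6 was at it and KCNN4 below it. Of the 95 members, 71 matched the promoter table, with a median of 19.5 CG in the 16 that rose and 17 in the 19 that fell, and this was not tested. All 4 windows hold the letters GGGCGG on either strand, as do 42.3% of all promoters and 40 of the 71 members, and none of the 4 holds TATAAA, which 11.1% of all promoters hold on either strand. A match is a description of the letters only.

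Levels can be compared roughly between genes after division by exon length. GENCODE lengths were used because the sources used here do not name the annotation behind the counts. Each length joins the exons of all annotated transcripts of a gene, so a gene with long exons that these cells do not use is placed too low. On the scale of mean CPM per kb of exon, KCNN4 (22.3 ± 0.859) and KCNK1 (22.2 ± 0.559) were highest in olaparib and did not differ beyond their spread, followed by KCNAB2 (11.5 ± 1.43), KCNJ18 (11.3 ± 4.68) and KCNJ12 (8.44 ± 1.29), then KCNQ1 (4.16 ± 0.156) and KCNK6 (3.72 ± 0.300). In DMSO the highest of the genes shown were KCNK1 (8.60 ± 0.583), KCNJ8 (5.40 ± 0.694), KCNG1 (3.90 ± 0.843), KCNN4 (3.63 ± 0.850), KCNAB2 (3.24 ± 0.0659) and KCNK5 (3.22 ± 0.280), and from KCNG1 on neighbours in this order lay within their spread. KCNK1, KCNN4 and KCNAB2 were among the top 7 members in both groups. KCNJ8 and KCNG1 were among the top 3 in DMSO and at or below 0.00428 CPM per kb in olaparib.

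**Figure D3:**
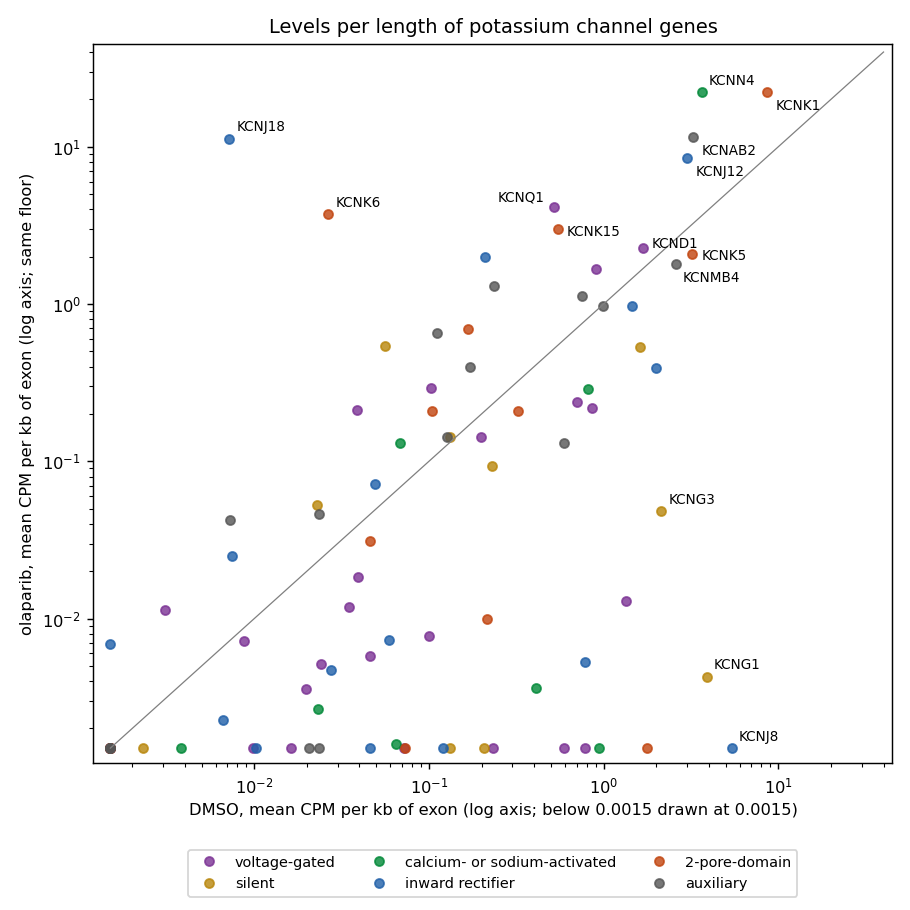
Mean CPM per kb of exon of 91 of the 95 potassium channel genes in olaparib (vertical, log axis) against DMSO (horizontal, log axis), coloured by class, with equal levels on the grey line. KCNK1 and KCNN4 sit at the upper right, KCNJ18 and KCNK6 high at the left and KCNJ8 and KCNG1 low at the right; each point is a mean of 3 libraries.

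Summed CPM shifted between classes. All members together stood at 524, 521 and 512 CPM in olaparib replicates 1 to 3, against 375, 343 and 334 CPM in DMSO. The 5 members with most CPM in olaparib, KCNAB2, KCNK1, KCNN4, KCNJ12 and KCNC4, took 68.4% of the summed level there and 32.5% in DMSO. Voltage-gated pores were lower in olaparib, with summed levels of 84.3 ± 3.26 CPM there and 126 ± 11.8 CPM in DMSO (SD, n = 3). The other classes apart from silent subunits were higher. Background channels of the 2-pore-domain class had 123 ± 1.85 CPM in olaparib and 54.3 ± 1.69 CPM in DMSO, and calcium- or sodium-activated channels 78.9 ± 2.93 against 27.5 ± 0.971 CPM. Inward rectifiers had 89.4 ± 21.2 against 47.4 ± 6.62 CPM, and auxiliary subunits 139 ± 12.8 against 58.5 ± 3.35 CPM. These sums have no test of their own.

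**Figure D4:**
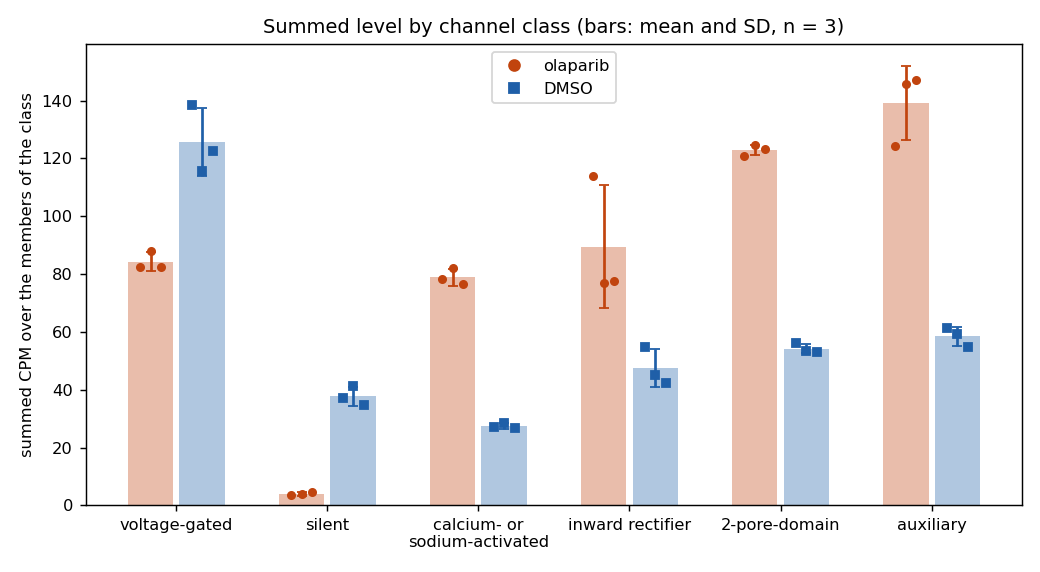
Summed CPM of the members of each channel class, with olaparib at the left of each pair and DMSO at the right; points are libraries, bars are means and whiskers SD (n = 3). Voltage-gated and silent classes are lower in olaparib and the other 4 are higher, with no overlap of libraries in any class.

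The chromosomal neighbourhood of each member was described as well. For each tested member, the median log2 fold change of the other tested protein-coding genes within 5 Mb was -0.99 to 1.02. A member had the sign of that median in 27 of 57 cases. Across the 57 members, which are not independent replicates, the correlation of the member with that median was r = -0.01 (Spearman rho -0.05). KCNA2, KCNA3 and KCNC4 lie within 1 region of chromosome 1, where the neighbours had medians of 0.12 to 0.16. KCNA2 and KCNA3 fell there while KCNC4 rose. KCNJ11 and KCNC1 on chromosome 11 both fell, beside a neighbourhood median of -0.81.

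The other 38 members were not tested. KCNA5, KCNA10, KCNC2, KCNE2, KCNE3, KCNK10, KCNK16, KCNK17, KCNK18 and KCNMB1 had no count in any library. The other 28 had counts, with a highest group mean of 0.422 CPM, that of KCNH6 in DMSO. Over all 95, 18 members had no count in olaparib but some in DMSO, and 1, KCNJ16, had no count in DMSO but 4 in olaparib.

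Other genes of potassium handling were compared in the same fit, in which 35.4% of all genes tested were higher and 40.3% lower. Of 18 partner genes outside the KCN symbols, 12 were tested, 5 of which rose and 5 of which fell, with a median log2 fold change of -0.29. The scaffold AKAP9 was 2.42-fold higher (149 ± 4.44 against 61.5 ± 11.6 CPM). Genes for calmodulin, the calcium sensor of KCNN and KCNQ channels, went apart: CALM2 was 2.39-fold higher (473 ± 67.2 against 198 ± 14.8 CPM), while CALM3 was 4.83-fold lower (89.7 ± 7.40 against 433 ± 53.9 CPM).

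Of 25 genes of potassium pumps and cation-chloride cotransporters 14 were tested, with 5 higher, 4 lower, 5 not called and a median of 0.16. The shares among all genes tested were 35.4% higher and 40.3% lower. The potassium-chloride cotransporter SLC12A7, which carries potassium out of the cell with chloride, was 6.71-fold higher (233 ± 22.1 against 34.7 ± 2.67 CPM). ATP1B1, the beta subunit of the sodium pump, was 3.19-fold higher. The pump regulator FXYD6 had no count in olaparib (at least 76.7-fold lower). SLC12A3, the thiazide-sensitive cotransporter, was 43.2-fold lower and moved from -5.43 to -9.52 (log2) without olaparib replicate 3 and to -4.84 without olaparib replicate 2.

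Of 36 sodium, calcium and HCN channel genes 27 were tested, with 7 higher, 14 lower and 6 not called, and a median of -0.79. Beside these counts stand 35.4% higher and 40.3% lower among all genes tested. The neuronal sodium channel SCN8A held 2 olaparib counts against 11.7 ± 3.27 CPM in DMSO libraries (count ratio 532, 95% interval 147 to 4400). The pacemaker channel HCN4 also held 2 olaparib counts, against 4.16 CPM in DMSO (count ratio 185, 95% interval 50.9 to 1531). Both of these pairs of counts were in olaparib replicate 3, without which SCN8A moved from -8.79 to -11.68 and HCN4 from -7.30 to -10.19 (log2). Higher in olaparib were the calcium channel genes CACNA1A (7.14-fold), CACNA1C (2.89-fold) and CACNB1 (2.64-fold), and CACNA1A moved from 2.84 to 3.43 without DMSO replicate 2.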

How the data were processed

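The authors deposited raw read counts for each gene symbol in 1 table. Fastp, STAR and hg38 are named in the submitters' processing notes, and the counter, strand setting and annotation were not given in the sources used here. Sample titles gave groups and replicate numbers. No label says whether the replicates are separate cultures, and the p-values cover only how these libraries vary, which may be technical. Libraries of 1 group differed beyond sampling noise (chi-square per degree of freedom 4.74 to 68.6 over library pairs). More genes had 2 counts than 1 in each library, which happens where mates are counted singly. Intervals and floors treat counts as independent, cover counting error only and may be too narrow.

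All genes were fitted together with edgeR 4.0.16 (R 4.3.3; filterByExpr, TMM factors, robust quasi-likelihood fit, group as sole term), and p-values were adjusted by Benjamini-Hochberg over 17078 genes. CPM refer to TMM-scaled library sizes, and SE were derived from the F statistic. Against a group at 0, folds were computed from a floor of 3 counts over its 3 libraries, and against 1 to 3 counts the count ratio carries an exact 95% interval. Alternatives were DESeq2 1.42.0, RLE factors, library size alone, 2 other filters, a replicate block and leaving out each library. The 95 members, the gene lists and the marker lists were chosen with earlier results of these data known. Values per library are given for the 12 largest called rises, the 12 largest called falls, members on in 1 group only and the 5 uncalled members of highest mean CPM, and of each other list up to 3 called genes in each direction. Some genes these rules name are not reported here or drawn in the figures, while the counts, class sums and medians include them. Positions, exon lengths and overlaps are from GENCODE release 29, in which all 95 members matched, and promoters from RefSeq (GRCh38.p14).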

Additional observations from a re-analysis of the deposited data

How the results depend on the processing

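Over the 12 other settings, 17 to 20 members were higher and 23 to 37 lower, beside 19 and 31 in the fit reported. Call and direction held in 44 of the 57 members tested in every setting that tested them. In 8 members the call was lost in at least 1 setting, with adjusted p of 0.0504 to 0.159, and 3 were called only in another setting; the report names 6 of the first and all of the second. In 2 uncalled members the sign turned, both without olaparib replicate 1: leaving out each library gave -0.35 to 0.46 for KCNE4 and -0.0894 to 0.0316 for KCNAB3 (log2). The 18 genes that the rule picks from the other lists kept call and sign. The count of lower potassium transporters, 4, was 9 with no filter beyond 1 count and 8 with DESeq2, both of which tested more genes. Members on in olaparib only, 1, were 0 when off meant no count at all and 1 to 2 without each library, 2 without DMSO replicate 3. Members on in DMSO only, 8, were 5 when off meant no count at all, 11 at 0.5 CPM and 8 to 9 without each library. Without a library, 18 to 19 members were higher and 27 to 32 lower.

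No pairing by replicate number was seen in the values: deviations from the group means correlated at -0.09, -0.04 and -0.00 for equal numbers. With 3 libraries per group this cannot show whether libraries of equal number were handled together. With the replicate block 18 members were higher and 29 lower. The median log2 fold change of all genes was -0.09 with TMM and -0.16 with library size alone, a shift below 0.1. At 1 count per 0.0226 to 0.0354 CPM, differences among the 8 tested members below 1 CPM in both groups rest on few counts.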
